A study of Mus musculus with 4 samples.

Results

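Keratinocytes that make the keratin pair Krt4 and Krt13, the intermediate filament proteins of soft oral lining epithelium, were examined in droplet single-cell RNA libraries of mouse gingiva. They were chosen by their counts. A barcode was taken when Krt4 and Krt13 together gave at least 10 UMIs (unique molecular identifiers, tags that mark single RNA molecules) and at least 0.5% of its UMIs. It also needed at least 200 detected genes, at most 20% mitochondrial UMIs, under 10000 UMIs in all, and under 10% of UMIs from the gland transcripts Dcpp1, Dcpp2, Dcpp3 and Bpifa2. The rule selected 448 of 5911 barcodes that passed the general filters, out of 8295 deposited barcodes. The 4 groups were diseased gingiva treated with metformin (54 selected barcodes), diseased gingiva (118), gingiva given metformin without disease (130), and healthy gingiva (146). Each group was 1 library made from maxillary gingival tissue, and the study's title names periodontal disease and its prevention by metformin, a glucose-lowering drug. The number, age and strain of the mice, how disease was induced and the metformin dose are not given in the sources used here. Since a group is a single library, differences have no replicate check and no p-value is given. Intervals measure counting error alone.

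Stratified epithelium renews from a basal layer that carries Krt5 and Krt14, and cells leaving that layer switch to a differentiation pair of keratins. Lining mucosa, the flexible surface of cheek and alveolar mucosa and of the gingival sulcus, uses Krt4 and Krt13, whereas chewing surfaces of the gum and palate use keratinized programmes with keratins such as Krt76. Wounded or stressed epithelium adds Krt6a, Krt6b, Krt16 and Krt17. The other genes that mark the lining type here are the intracellular protease inhibitors Serpinb3a and Serpinb12, the cystatin Cst6, and the transglutaminase Tgm3, which cross-links proteins of the cell envelope.

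The selected barcodes held 166078 UMIs in disease plus metformin, 285718 in disease, 365708 in metformin and 343500 in healthy gingiva. Their median depths were 2540.5, 1877, 2024.5 and 1520 UMIs in that order of libraries. RNA quality differed between the libraries. Of the selected barcodes, 59.3% in disease plus metformin, 33.9% in disease, 48.5% in metformin and 42.5% in healthy gingiva held no mitochondrial UMI. With each barcode thinned to 500 UMIs, Malat1, a nuclear RNA, was expected in 24.3%, 23.5%, 29.0% and 40.6% of them in the same order. Of deposited barcode sequences, 2, 3, 7 and 4 were found in another library too, of which 1 disease and 1 healthy barcode were among those selected. Doublets were not called. The part of RNA quality in the results below was not tested.

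Levels are CPM, UMIs of a gene per 1000000 UMIs summed over the selected barcodes of a library. Krt4 (chr15:101918535-101924735, minus strand, GRCm38) was at 2101 CPM in the disease plus metformin library, 9485 in disease, 5545 in metformin and 9636 in healthy gingiva. Krt13 (chr11:100117327-100121566, minus strand) was at 18413 CPM in the disease plus metformin library, 27496 in disease, 21758 in metformin and 25679.8 in healthy gingiva. Both were used by the rule, so these levels are a description. The 2 keratins did not keep 1 ratio, since Krt4 made up 10.2% of the pair's UMIs in disease plus metformin, 25.6% in disease, 20.3% in metformin and 27.3% in healthy gingiva.

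The 4 marker genes that the rule did not use were found in every library. Serpinb12 (chr1:106934449-106957080, plus strand) was at 373 CPM in the disease plus metformin library, 528 in disease, 465 in metformin and 571 in healthy gingiva. Serpinb3a (chr1:107045587-107052303, minus strand), which lies in the same serpin cluster, was at 187 CPM in the disease plus metformin library, 332 in disease, 306 in metformin and 265 in healthy gingiva. Tgm3 (chr2:130012349-130050399, plus strand) was at 403 CPM in the disease plus metformin library, 640.5 in disease, 448 in metformin and 675 in healthy gingiva. Cst6 (chr19:5344705-5349574, minus strand) was at 157 CPM in the disease plus metformin library, 178 in disease, 197 in metformin and 157 in healthy gingiva. Tgm3 was lower in both metformin-treated libraries than in both untreated ones, and the Poisson intervals of Cst6 overlapped in all 4 libraries.

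**Figure D1:**
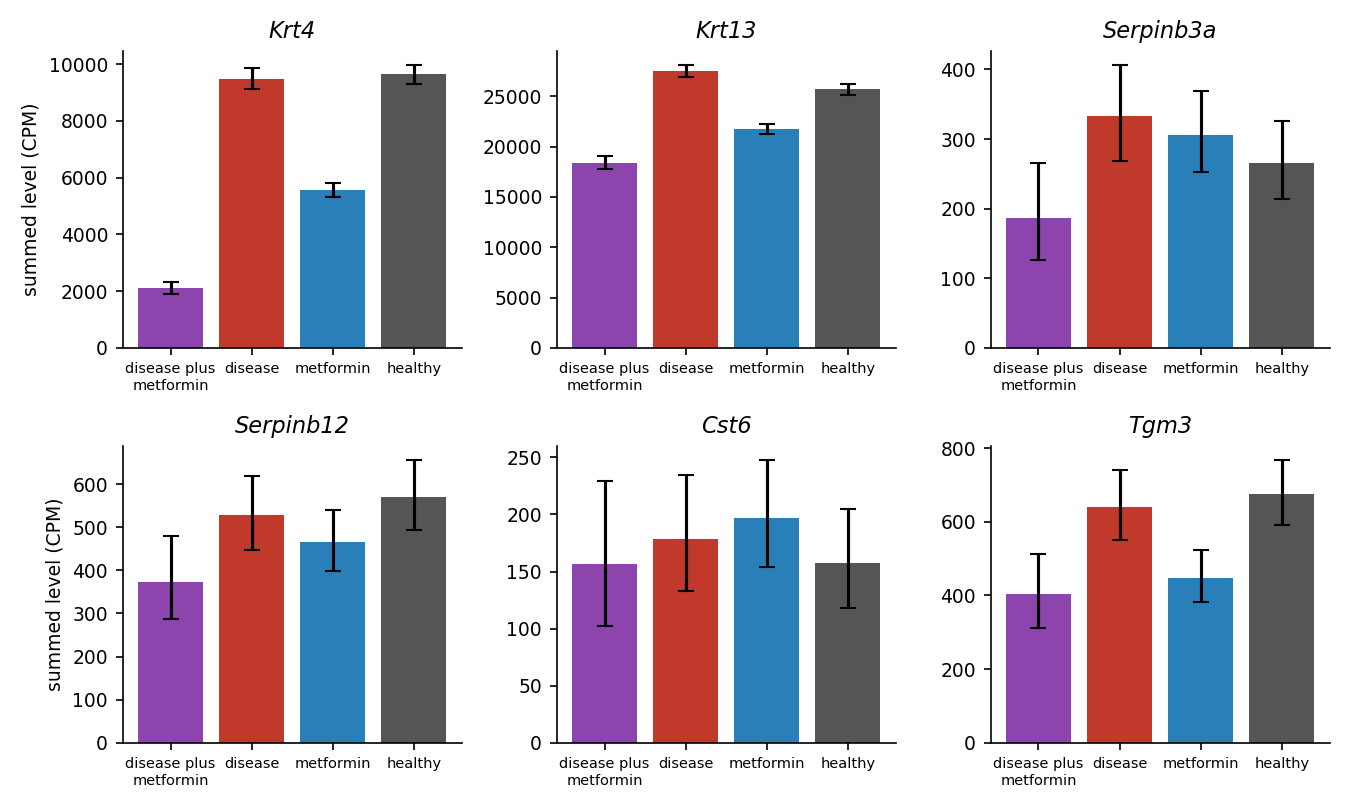
Summed level in CPM of the 6 marker genes in Krt4 Krt13 keratinocytes of each library, with exact Poisson 95% intervals (counting error only, 1 library in each group). Krt4 was lowest in disease plus metformin at 2101 CPM, while Cst6 lay between 157 and 197 CPM in every library.

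The bases upstream of the marker genes are shown because these genes mark the cells. RefSeq windows (GRCm38.p6) were matched by symbol for 4 of the 6 marker genes, and the 250 bases before RefSeq's start (the outermost where it lists several) are printed for each, 5′ to 3′ on the strand of the gene. Capitals mark TGANTCA, searched on both strands, and TATAAA, the TATA box, searched on the strand of the gene. TGANTCA is a loose form of the AP-1 motif, which has C or G at the N, where any base was allowed here.
Krt13, chr11:100121567-100121816, minus strand: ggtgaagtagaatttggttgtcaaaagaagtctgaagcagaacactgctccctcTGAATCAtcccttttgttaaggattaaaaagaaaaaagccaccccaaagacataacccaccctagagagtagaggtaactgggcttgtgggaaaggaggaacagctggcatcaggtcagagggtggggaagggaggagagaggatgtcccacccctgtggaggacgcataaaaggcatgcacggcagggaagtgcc
Serpinb3a, chr1:107052304-107052553, minus strand: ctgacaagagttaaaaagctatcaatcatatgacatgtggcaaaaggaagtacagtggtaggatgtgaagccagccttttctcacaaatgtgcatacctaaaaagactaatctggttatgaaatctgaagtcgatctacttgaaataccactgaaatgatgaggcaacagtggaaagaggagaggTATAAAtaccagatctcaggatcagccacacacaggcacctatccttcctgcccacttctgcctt
Serpinb12, chr1:106934199-106934448, plus strand: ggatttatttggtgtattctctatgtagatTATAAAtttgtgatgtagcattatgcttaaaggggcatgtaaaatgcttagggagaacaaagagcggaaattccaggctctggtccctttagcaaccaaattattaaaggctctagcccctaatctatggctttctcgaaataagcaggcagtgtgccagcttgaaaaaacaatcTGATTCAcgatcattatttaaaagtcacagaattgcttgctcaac
Tgm3, chr2:130012090-130012339, plus strand: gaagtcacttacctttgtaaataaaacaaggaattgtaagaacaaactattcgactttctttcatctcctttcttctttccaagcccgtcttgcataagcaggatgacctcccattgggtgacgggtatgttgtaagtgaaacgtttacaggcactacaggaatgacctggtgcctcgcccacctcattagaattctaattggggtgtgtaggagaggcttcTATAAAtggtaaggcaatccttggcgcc
Krt13 has 1 TGANTCA match, TGAATCA, that begins 196 bases before its start and no TATAAA. Serpinb12 has 1 TGANTCA match, TGATTCA, that begins 45 bases before the start and a TATAAA 220 bases before it. Neither match has the C or G of the AP-1 motif at the N. Serpinb3a and Tgm3 have a TATAAA 65 and 28 bases before the start, and no TGANTCA match. Among 32851 windows of the same length, 6.75% hold TGANTCA and 7.59% hold TATAAA. A match is a run of letters and not a shown binding site.

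Endothelial, fibroblast, leukocyte, melanocyte, nerve and muscle genes left few UMIs in these cells, but salivary gland genes left many. Of 10 endothelial genes, Ackr1 and Cldn5 were at 0 in every library, and the list summed to 6.02 CPM in disease plus metformin, 0 in disease, 2.73 in metformin and 52.4 in healthy gingiva. Fibroblast genes summed to 18.1, 10.5, 57.4 and 43.7 CPM, and leukocyte genes to 12.0, 87.5, 16.4 and 26.2 CPM, in the same order. In the disease library 1 barcode held 96% of those leukocyte UMIs, and in healthy gingiva 1 barcode held all 9 leukocyte UMIs and 1 barcode 61.1% of the 18 endothelial UMIs. Lum, Pdgfra and Dpt (fibroblasts) and Tyrobp, Fcer1g and Csf1r (leukocytes) were at 0 in every library. Melanocyte, nerve and muscle genes summed to 12.0, 3.5, 8.2 and 8.73 CPM. Of 25 salivary gland genes, 12, 11, 16 and 16 had a UMI and they summed to 5485 CPM in disease plus metformin, 1557 in disease, 8447 in metformin and 9284 in healthy gingiva, so gland RNA was lowest in the disease library. Pip, Lpo and Car6 were at 0 in all 4 libraries, and the part of other cells' RNA in the results was not tested. Haemoglobin genes, added after the data were seen, summed to 15023 CPM in the metformin library, of which 96.5% came from 1 barcode, and to at most 279 CPM in the other libraries.

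The selected cells took a smaller share of barcodes in the treated or diseased library of each comparison. They were 3.90% of filtered barcodes in disease plus metformin (exact Clopper-Pearson 95% interval 2.95% to 5.06%), 8.56% in disease (7.13% to 10.2%), 6.22% in metformin (5.22% to 7.34%) and 13.8% in healthy gingiva (11.8% to 16%). The log2 ratio of shares was −0.69 for disease over healthy (95% interval −1.05 to −0.33), −1.13 for disease plus metformin over disease (−1.62 to −0.66) and −1.15 for metformin over healthy (−1.50 to −0.80). For disease plus metformin over metformin it was −0.67 (−1.16 to −0.20). Among keratinocyte barcodes alone the share was 8.81%, 14.1%, 11.8% and 25.3%, in the order disease plus metformin, disease, metformin and healthy, so the order of the libraries was kept. In dissociated tissue a lower share can also come from more of another cell type, and the 2 cannot be told apart. At a minimum of 5% of UMIs from the pair, the disease over healthy log2 ratio was −0.17.

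**Figure D2:**
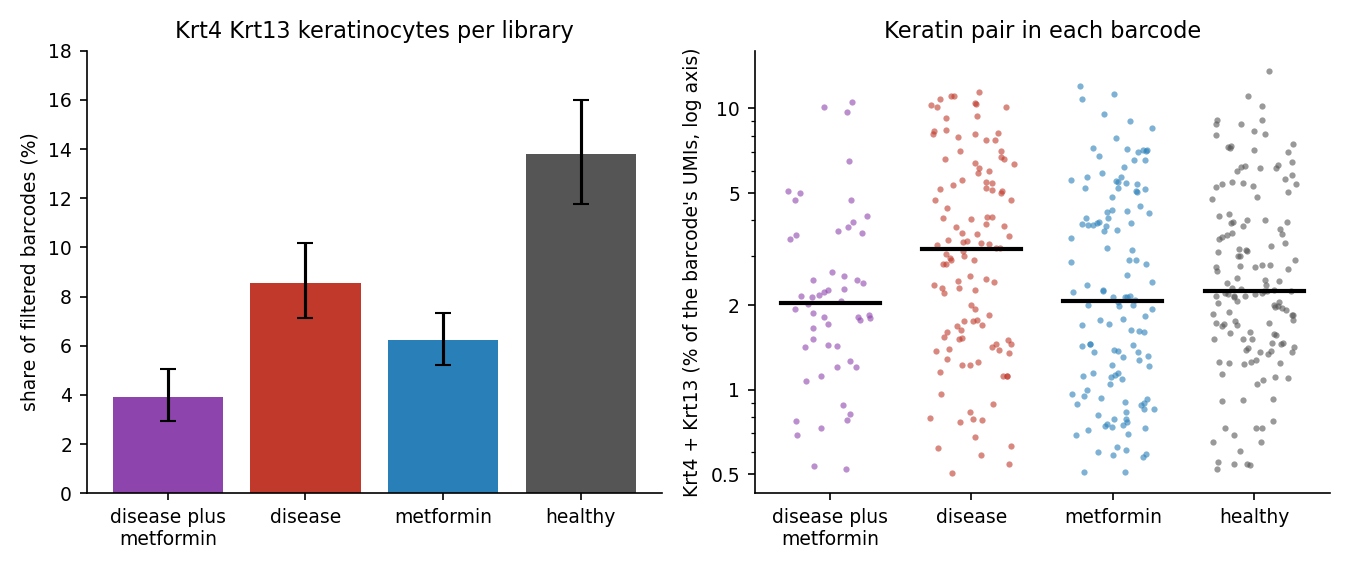
Left, the share of filtered barcodes taken by Krt4 Krt13 keratinocytes in each library with exact 95% intervals, from 3.90% in disease plus metformin to 13.8% in healthy gingiva. Right, the share of UMIs from Krt4 and Krt13 in each selected barcode on a log axis, with the library medians as bars (2.04%, 3.16%, 2.06% and 2.25% from left to right).

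Few barcodes lay just inside the percent limit, but more lay just inside the count limit, in unequal numbers between the libraries. Between 0.5% and 0.6% of UMIs from the pair lay 2 selected barcodes in disease plus metformin, 3 in disease, 5 in metformin and 5 in healthy gingiva, and 1, 0, 6 and 7 further barcodes with at least 10 UMIs lay between 0.4% and 0.5%. With 10 to 12 UMIs of the pair there were 0, 12, 9 and 22 selected barcodes, and 5, 10, 26 and 21 barcodes had 7 to 9. The limit on gland transcripts kept out 1 barcode in disease plus metformin, 9 in metformin and 0 in the other libraries.

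To place these cells among the epithelium, they were set against 2 other sets of keratinocytes of the same library with under 0.5% of UMIs from the pair. One set had at least 3 Krt76 UMIs (331 barcodes) and the other, called basal, had at least 10 UMIs and 0.5% of UMIs from Krt5 and Krt14 with fewer than 3 Krt76 UMIs (2351 barcodes). Of 3503 genes with enough counts, 166 (4.74%) were at least 1.5-fold higher in the Krt4 Krt13 cells in all 4 libraries, and 242 (6.91%) were lower in all 4. The cells were chosen by 2 of these genes, so the differences are a description of the type. Folds given here are the smallest of the 4 libraries, against both sets pooled, which were mostly basal barcodes. Serpinb3a was 27.0-fold higher, Tgm3 12.8-fold, Serpinb12 12.2-fold and Cst6 4.93-fold. These 4 markers were chosen with earlier results of these data known, so they do not test the label. Differences from the Krt76 set alone were smaller, each given for the library where it was least. In disease Serpinb12 was at 528 CPM against 119 and Serpinb3a at 332 against 50.9. In healthy gingiva Tgm3 was at 675 CPM against 127 and Cst6 at 157 against 87.6.

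The genes highest over the other keratinocytes included keratins, surface proteins and enzymes. The keratins were Krt23, 15.4-fold higher at the smallest of the 4 ratios, and Krt32, 11.9-fold. Surface and envelope proteins were Pinlyp, a Ly6-type phospholipase inhibitor 12.5-fold higher, Ly6g6e at 6.2-fold, Sbsn (suprabasin) at 7.94-fold and Krtdap, a secreted differentiation protein, at 4.66-fold. The enzymes were the cytochrome P450 Cyp2f2 (9.27-fold), the carboxylesterase Ces1h (7.5-fold), the aldehyde dehydrogenases Aldh3b2 (7.36-fold) and Aldh3a1 (5.81-fold), the glutathione transferase Gsta2 (5.97-fold), Ptgr1 (4.31-fold) and the cholesterol sulfotransferase Sult2b1 (4.38-fold). Mt4, the metallothionein of stratified epithelia, was at 14649.7 CPM in the disease plus metformin library, 25802 in disease, 19494 in metformin and 22262 in healthy gingiva and 5.01-fold above the other keratinocytes. Fbp2, a gluconeogenic enzyme, was 4.70-fold higher and the calpain subunit Capns2 4.19-fold. Some of these genes lay closer to the Krt76 set alone. At their least apart, Gsta2 was at 422 against 295 CPM in healthy gingiva and Capns2 at 297 against 181 in disease. Mt4 was at 14649.7 against 6829 CPM in disease plus metformin.

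Among the genes lowest in the Krt4 Krt13 cells against the pooled sets was Dcn (decorin), a matrix proteoglycan also on the fibroblast list above. It was at 18.1, 7, 46.5 and 37.8 CPM in disease plus metformin, disease, metformin and healthy gingiva. The other keratinocytes held 800.4 to 1111 CPM, and the part of fibroblast RNA in that level was not tested. Sparc, a matrix glycoprotein, was at up to 55.3 CPM against 280.3 to 379, and BC037156 at up to 259 against 613 to 5188. Sprr2d, a small proline-rich envelope protein, was at up to 12 CPM against 56.6 to 253, and Odam, a protein of the junctional epithelium at the tooth, at up to 12 against 46.1 to 343. Sostdc1, a BMP antagonist, was at up to 16.4 CPM against 64.2 to 103, the metalloproteinase Pappa at up to 23.3 against 81.8 to 164, and the creatine kinase Ckb at up to 12 against 55.8 to 77.9. The noncoding RNA Lockd was at up to 7 CPM against 47.2 to 81.3 and the histone gene Hist1h2af at up to 14 against 40.6 to 84.7. Sprr2d, Pappa and Ckb had no UMI in the selected cells of at least 1 library. In the Krt76 set alone BC037156 was at 6.5 to 56.6 CPM, below the Krt4 Krt13 cells in every library but metformin. Odam was at 0 CPM in that set in every library and Sprr2d at up to 11.3. For these genes the difference thus lay against the basal set.

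**Figure D3:**
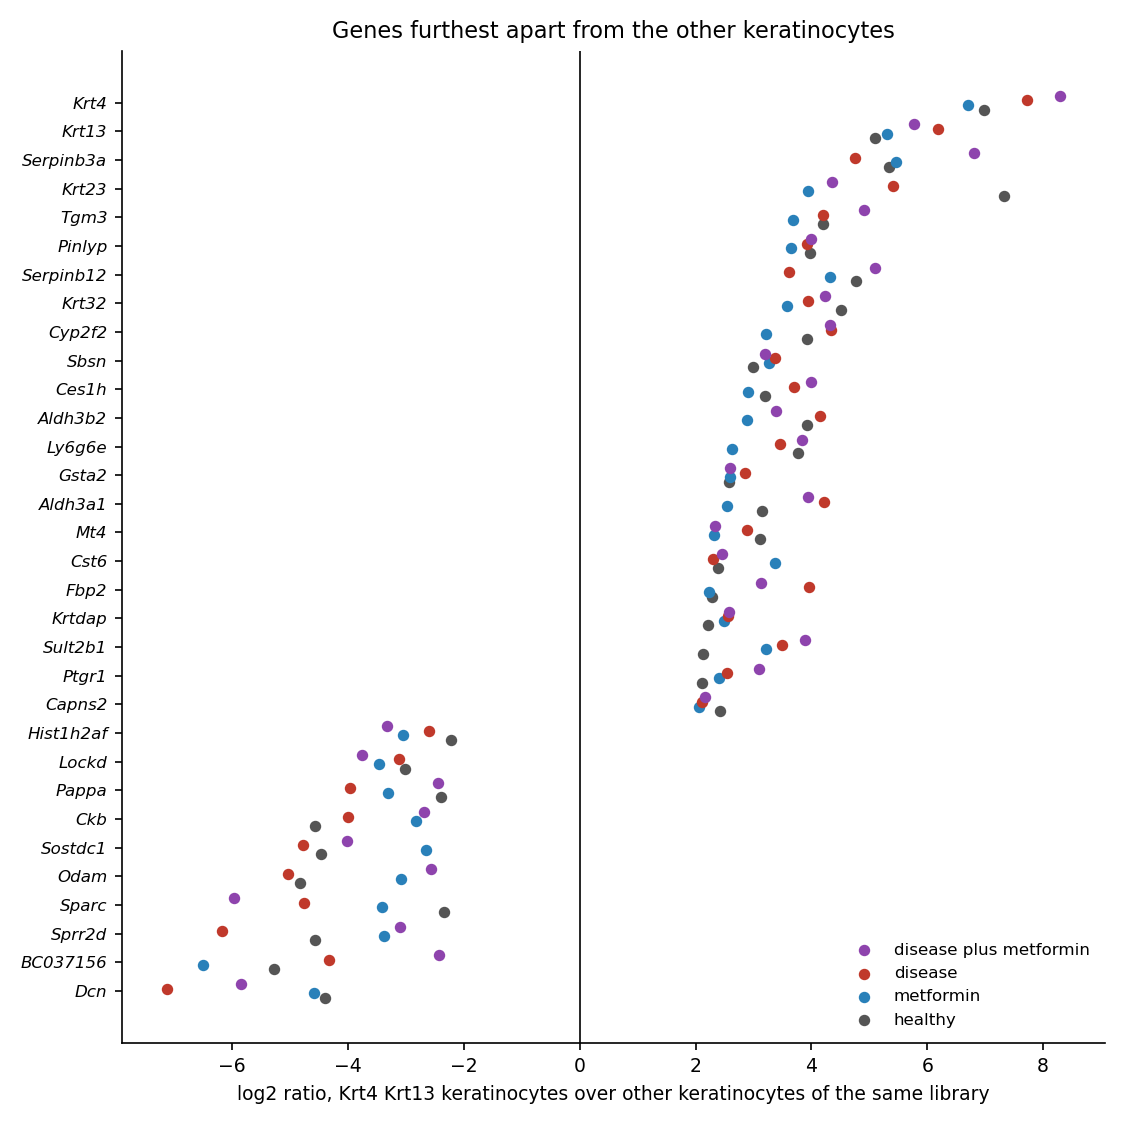
Log2 ratio of summed CPM in Krt4 Krt13 keratinocytes over the other keratinocytes of the same library for the genes furthest apart, 1 point for each library. All points of the upper genes lie right of 0 and all points of the lower genes left of 0. Krt4 and Krt13 were used to choose the cells.

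Some selected cells carried keratins of other layers too. Krt5 and Krt14 at basal level (at least 10 UMIs and 0.5% of UMIs) were found in 29.6% of them in disease plus metformin, 28.8% in disease, 50% in metformin and 32.9% in healthy gingiva. The exact interval of the metformin library ran from 41.1% to 58.9%, above that of the disease library (20.8% to 37.9%) and overlapping that of healthy gingiva (25.3% to 41.1%). At least 3 Krt76 UMIs were in 9.26%, 7.63%, 15.4% and 12.3%, in the order disease plus metformin, disease, metformin and healthy. Neither was found in 37 of 54, 79 of 118, 62 of 130 and 92 of 146 cells in the same order.

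The cells ranged from a low to a high share of the pair, and whether that range is continuous or a mix of kinds of cells was not tested. The pair gave 0.5 to 2% of UMIs in 188 cells, 2 to 5% in 155, 5 to 10% in 88 and 10% or more in 17. Only 6 of the 54 cells of disease plus metformin lay at 5% or more, against 37 in disease, 30 in metformin and 32 in healthy gingiva. Median depth differed between the ranges. In disease plus metformin it was 3624.5 UMIs at 0.5 to 2% and 808.5 at 5 to 10%, and in healthy gingiva 2095 and 3211. Bins are ranges and not types. Levels that compare cells at 5% or more with cells at 0.5 to 2% are on totals without Krt4 and Krt13. Levels given for a single range, here and in later comparisons, are per all UMIs. Between cells at 5% or more and cells at 0.5 to 2%, a comparison set up after the data were seen, Krt14 was lower in all 4 libraries with log2 ratios of −3.64 in disease plus metformin, −6.60 in disease, −3.30 in metformin and −4.22 in healthy gingiva. Krt5 was lower by log2 ratios between −4.27 and −3.13. The other genes lower toward a high share were Crip1 (−3.96 to −1.81), S100a10 (−2.59 to −1.64), Tubb5, a tubulin (−1.81 to −1.30), H2afz, a histone (−2.01 to −1.24), Igfbp2 (−2.50 to −1.09) and the nuclear RNA Malat1 (−3.40 to −1.01). In the 6 high-share cells of disease plus metformin Crip1 had no UMI, and S100a10, Tubb5, H2afz and Malat1 had 1 UMI each, so those ends of the ranges are loose.

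Other genes were higher toward a high share in all 4 libraries. Serpinb3a had log2 ratios from 1.89 to 4.67, Sbsn from 1.72 to 3.21, Dmkn (dermokine) from 1.48 to 2.22 and Cyp2f2 from 1.43 to 2.91. Fabp5, the epidermal fatty acid binding protein, had ratios from 1.38 to 1.74, Dbi, which binds acyl-CoA, from 1.30 to 1.62, and Mt4 from 1.13 to 1.77. Hspb1, a small heat shock protein of differentiating keratinocytes, had ratios from 1.09 to 1.63. Fabp5 stood at 23359.5 CPM in high-share and 8403 CPM in low-share cells of disease plus metformin, and at 24083 and 7199.7 CPM in healthy gingiva.

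Across cells of 1 library, Krt13 and Krt14 ran against each other, with Spearman correlations of −0.33 in disease plus metformin (54 cells), −0.43 in disease (118), −0.55 in metformin (130) and −0.57 in healthy gingiva (146). Krt13 and Mt4 ran together at 0.39, 0.62, 0.59 and 0.65 in the same order. Krt4 and Krt6a ran against each other at −0.51, −0.35, −0.48 and −0.21. The cells of a correlation share 1 library and differ in depth.

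Krt4 trailed Krt13 along this range. Krt4 made up 6.75% of the pair's UMIs at 0.5 to 2%, 9.40% at 2 to 5% and 20.6% at 5 to 10% in disease plus metformin, against 13.1%, 20.6% and 30.0% in disease. In metformin the 3 values were 5.19%, 18.8% and 27.2%, against 15.6%, 26.6% and 29.3% in healthy gingiva. The share of Krt4 was thus lower in disease plus metformin than in disease, and lower in metformin than in healthy gingiva, in each of these 3 ranges. A Krt4 UMI was found in 44.4% of cells of disease plus metformin (24 of 54, 95% interval 30.9% to 58.6%), 79.7% of disease, 66.2% of metformin and 80.1% of healthy cells. After thinning to 500 UMIs the expected shares were 30.3%, 71.8%, 52.7% and 72.7%. Endothelial barcodes, which should lack Krt4, had a Krt4 UMI in 0 of 21 (which allows a share of up to 14.3%), 6.56% of 61, 8.33% of 36 and 30.4% of 23 barcodes, at median depths of 2705, 2423, 4270 and 2538 UMIs, in the same order.

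**Figure D4:**
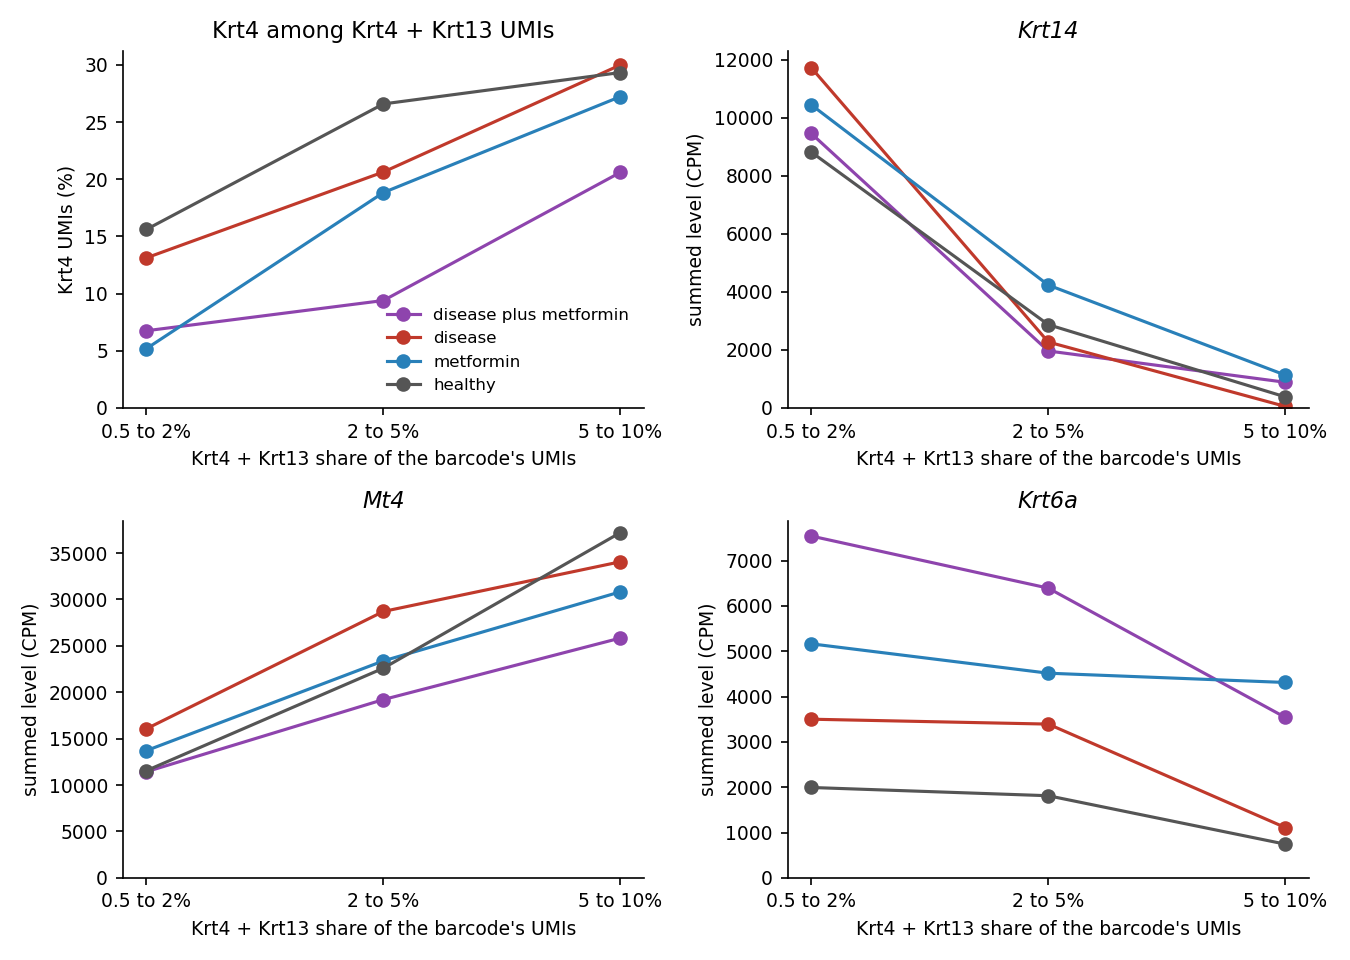
Krt4 as a percent of Krt4 and Krt13 UMIs, and summed levels of Krt14, Mt4 and Krt6a in CPM, in cells with 0.5 to 2%, 2 to 5% and 5 to 10% of UMIs from the pair, 1 line for each library. Krt4 and Mt4 stand higher and Krt14 lower toward a high share in all 4 libraries. The last range of disease plus metformin holds 4 cells. Levels are per all UMIs.

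Disease was set against healthy gingiva to describe these cells in diseased tissue without the drug. The lining markers were close in both libraries. Of the 6 marker genes, 2 of which the rule used, 0 were 1.5-fold apart, with a median log2 ratio of 0.04. Of 2423 measured genes (at least 20 UMIs over both libraries), 253 (10.4%) were 1.5-fold or more above healthy gingiva and 310 (12.8%) below it to the same degree, and their median log2 ratio was 0.0027. Krt4 was at 9485 CPM in disease and 9636 in healthy gingiva, and Krt13 at 27496 and 25679.8 CPM.

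Wound keratins were higher in disease, 3 of 4 measured of 8 listed, with a median log2 ratio of 1.31. Krt6a was at 2761 CPM in disease against 1558 in healthy gingiva, and its log2 ratio was 0.83 (95% interval 0.67 to 0.99). Krt6b was at 675 against 160.1 CPM and Krt16 at 1396 against 405 CPM. Of the Krt16 UMIs, 40.6% in disease and 50.4% in healthy gingiva came from 1 barcode. Of the Krt6b UMIs in disease, 1 barcode held over 20%, which kept Krt6b out of the ranking below. In the basal comparator Krt6a stood at 1411 CPM in disease and 1935 in healthy gingiva, so the order of the 2 libraries was the other way there, and that difference was not tested.

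First among the genes ranked higher in disease, a ranking without gland genes, was Pde4d, a phosphodiesterase that breaks down cyclic AMP. It was at 1631 CPM in disease and 96.1 in healthy gingiva, 17-fold higher, with a log2 ratio of 4.09 (95% interval 3.58 to 4.64). It was found in 90 of 118 disease and 29 of 146 healthy cells. In the basal comparator Pde4d was at 1288 CPM in disease and 95.6 in healthy gingiva, and 50.8% of 61 endothelial barcodes in disease and 21.7% of 23 in healthy gingiva held a Pde4d UMI. In all other barcodes, the filtered ones outside these cells and both comparators, the order was the other way, at 1665 CPM in disease and 5406 in healthy gingiva. Gsta1, a glutathione transferase, was at 220.5 against 72.8 CPM, a log2 ratio of 1.60 (95% interval 0.91 to 2.33). Fgfbp1, which releases fibroblast growth factors from matrix, was at 161 against 67 CPM.

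The envelope, protease inhibitor and junction lists held more genes 1.5-fold higher than lower in disease. Of 16 measured envelope genes of 41 listed, 5 were higher and 0 lower, with a median log2 ratio of 0.34. Krtdap was at 11067 CPM in disease and 7287 in healthy gingiva, and Calm4, a calmodulin-like protein, at 525 and 306 CPM. Of 13 protease inhibitors, 3 were higher and 0 lower (median 0.33), with Cstb, a cytosolic cystatin, at 591 against 299.9 CPM. Ly6d, a surface protein of stratified epithelium, was at 5628 against 3886 CPM. Of 11 desmosome and junction genes, 3 were higher and 0 lower, with a median of 0.37. Also among the 10 genes ranked highest were AY036118 (3797 against 2128 CPM), the mitochondrial ribosome gene Mrps24 (287 against 131) and Filip1l (213 against 96.1).

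Lower in disease were cell cycle genes (9 of 13 measured, 1 higher, median log2 ratio −0.83) and with them the tubulins of that list, Tubb5 at 192 CPM in disease and 439.6 in healthy gingiva, and Tuba1b at 147 and 294 CPM. The cell cycle median was 0.033 when barcodes over 10000 UMIs were kept, and the Tuba1b ratio was 0.057 with at least 5% of UMIs from the pair. Krt76 was at 770.0 against 1758 CPM, a log2 ratio of −1.19 (95% interval −1.42 to −0.97), with UMIs in 13 disease and 35 healthy cells. Ada, adenosine deaminase, was at 161 against 390.1 CPM, and at 6.64 and 3.14 CPM in the basal comparator. The class I antigen-presenting gene H2-K1 was at 45.5 against 128 CPM and the glyoxalase Glo1 at 143 against 314. Crabp1, a retinoic acid binding protein, was at 10.5 CPM in disease (3 UMIs in 1 barcode) against 93.2, while Crabp2 was at 339 against 189. Also lower were Agr2 at 77 against 230.0 CPM, Wfdc2 at 66.5 against 198 and Wfdc18 at 10.5 against 137. Gland genes were lower in the same cells (9 of 9 measured, median −2.54), and the part of gland RNA in this was not tested. Ndufa4l2 completed the 10 lowest, at 84 against 195 CPM.

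Of 62 nuclear oxidative phosphorylation genes, 1 was higher and 0 lower in disease, with a median log2 ratio of −0.02. Heat shock genes had 0 of 11 higher and 1 lower, endoplasmic reticulum chaperones 1 of 15 higher and 0 lower, and glycolysis genes 0 of 10 in either direction. NRF2 targets and metallothioneins had 1 of 17 higher and 0 lower. Only 3 NF-kB targets, 2 interferon response genes and 2 alarmins reached 20 UMIs, and of these 1 interferon response gene was 1.5-fold lower and 0 were higher. Mitochondrially encoded genes were lower (8 of 12, median −0.77), and the median turned to 1.68 in cells with at least 2% of UMIs from the pair.

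Disease plus metformin was set against disease to describe the drug in diseased tissue. Of the 6 lining markers, 3 were at least 1.5-fold lower and 0 higher, with a median log2 ratio of −0.62. The rule used Krt4 and Krt13, and of the other 4 only Serpinb3a and Tgm3 were 1.5-fold lower. Of 1844 measured genes, 226 (12.3%) were at least 1.5-fold higher and 244 (13.2%) lower, with a median of 0.0014. Krt4 was at 2101 CPM in disease plus metformin and 9485 in disease, 4.51-fold lower, with a log2 ratio of −2.17 (95% interval −2.34 to −2.01). Krt13 was at 18413 and 27496 CPM, a log2 ratio of −0.58 (95% interval −0.64 to −0.52). Serpinb3a (−0.83), Tgm3 (−0.67) and Serpinb12 (−0.50) had negative log2 ratios with intervals below 0, and Cst6 a ratio of −0.19 (95% interval −0.93 to 0.52). Under the 15 alternatives tried, the Krt4 log2 ratio lay between −2.36 and −0.47. The second value comes from cells with at least 5% of UMIs from the pair (6 in disease plus metformin). Krt4 was used to choose the cells, so this span is a description and not a check of the difference.

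Among the other genes ranked lowest in disease plus metformin, Mt3, a metallothionein, was at 434 CPM in disease plus metformin and 2184 in disease, 5.04-fold lower, with a log2 ratio of −2.33 (95% interval −2.71 to −1.98). It was found in 13 of 54 and 62 of 118 cells. Mt4 was at 14649.7 against 25802 CPM, a log2 ratio of −0.82 (95% interval −0.88 to −0.75), while Mt2 stood at 1192 against 1004. Crabp2, which delivers retinoic acid to the nucleus, was at 90.3 against 339 CPM, Pinlyp at 187 against 420.0, the acid phosphatase Acp5 at 90.3 against 227 and the calmodulin-like Calml3 at 987 against 1655. Gsta1 was at 78.3 against 220.5 CPM. Pde4d was at 307 against 1631 CPM, 5.31-fold lower, with a UMI in 31.5% against 76.3% of cells (42.9% against 50.8% of endothelial barcodes). It was also lower in the basal comparator, at 635 against 1288 CPM. In endothelial barcodes it was higher in disease plus metformin, at 2223 against 567 CPM, and so it was in all other barcodes, at 3037 against 1665 CPM. With at least 5% of UMIs from the pair, the log2 ratios of Crabp2, Acp5, Serpinb3a, Krt13 and Pde4d turned positive, on the same 6 cells of disease plus metformin. With barcodes over 10000 UMIs kept, the log2 ratio was 0.02 for Pinlyp, 0.11 for Calml3 and 0.13 for Serpinb12.

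Within cells of like keratin share, Mt3 stood at 589 CPM in disease plus metformin against 1030.0 in disease at 0.5 to 2%, and at 162 (9 UMIs) against 3012 CPM at 2 to 5%, here per all UMIs. Mt4 stood at 11432 against 16060.0 CPM and at 19211 against 28705 CPM in the same 2 ranges. Krt4 was lower there, at 869 against 1514 CPM and at 2719 against 6579 CPM. Krt13 was higher, at 12002 against 10016.5 CPM and at 26215 against 25304 CPM. The ranges are set by these 2 keratins together, so a lower Krt4 goes with a higher Krt13 and both are a description. Mt3 and Mt4 were lower in disease plus metformin in both ranges. Serpinb12 was higher in both, at 280.0 against 179 CPM and 540.2 against 389.9 CPM. Tgm3 was at 406 against 284 CPM, higher in disease plus metformin, and at 396 against 663 CPM, lower there. Serpinb3a was at 193 against 189 CPM and 72 against 185 CPM.

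Higher in disease plus metformin were wound keratins, 4 of 4 measured, with a median log2 ratio of 1.49. Krt6a was at 6979 CPM against 2761 in disease, a log2 ratio of 1.34 (95% interval 1.21 to 1.47), with UMIs in 48 of 54 and 60 of 118 cells. At 0.5 to 2% of UMIs from the pair it was at 7541 against 3500.0 CPM, and at 2 to 5% at 6392 against 3392 CPM. The other 3 rested on few cells of disease plus metformin. Krt6b was at 2113 against 675 CPM and Krt16 at 2216 against 1396, and 1 barcode held 78.6% of the Krt6b and 79.9% of the Krt16 UMIs. Without each gene's top barcode their log2 ratios were −0.07 and −0.88. Krt17 was at 1385 against 49 CPM, with UMIs in 8 of 54 and 6 of 118 cells. In the basal comparator Krt6a was at 1250.4 against 1411 CPM, and in the Krt76 comparator at 2094 against 3021, both lower in disease plus metformin.

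Other genes ranked highest were of several kinds. Krt14 was at 6581 CPM in disease plus metformin against 4753 in disease and Igfbp2, an insulin-like growth factor binding protein, at 1198 against 700.0. In cells of like keratin share Krt14 was lower in disease plus metformin, at 9453 against 11719 CPM at 0.5 to 2% and 1963 against 2271 CPM at 2 to 5%. Of 5 measured basal layer genes, 1 was 1.5-fold higher and 1 lower. The glutathione enzymes Gsta4 and Gpx2 were at 2631 against 1841 and 1608 against 1085 CPM, and Glo1 at 397 against 143. The Gsta4 ratio was −0.062 with at least 5% of UMIs from the pair. Anxa8, a membrane-binding annexin, was at 313 against 140.0 CPM and Rwdd1 at 325 against 140.0. Wfdc2 was at 271 against 66.5 CPM and Agr2 at 205 against 77. Gland genes were higher in the same cells (6 of 6 measured, median log2 ratio 2.43), and the part of gland RNA in Wfdc2 and Agr2 was not tested. Wfdc2 also stood higher in the basal comparator, at 507 against 157 CPM.

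Other lists were mixed in disease plus metformin over disease. Envelope genes had 2 of 17 higher and 5 lower (median log2 ratio −0.05), with Dmkn lower at 2601 against 3965 CPM. Retinoid and fatty acid binding genes had 0 of 5 higher and 1 lower, which was Crabp2, with a list median of −0.50, and Fabp5 was at 9748 against 14224 CPM. Ly6 and surface genes had 1 of 11 higher and 1 lower, with Ly6a at 428 against 689 CPM. Nuclear oxidative phosphorylation genes had 1 of 62 in each direction (median 0.07), glycolysis genes 0 of 9 in either direction, and NRF2 targets 1 of 17 higher and 2 lower. Mitochondrially encoded genes had 8 of 8 lower (median −1.43), and the median was 0.036 when cells over 10% mitochondrial UMIs were left out. That limit kept 116 of 118 cells in disease and all 54 in disease plus metformin, so the lower median rested on very few disease cells.

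Metformin was set against healthy gingiva to describe the drug without disease. Krt4 and Tgm3 were lower and wound keratins higher. Of the 6 lining markers, 2 were at least 1.5-fold lower and 0 higher, with a median log2 ratio of −0.27, and of the 4 outside the rule only Tgm3 was. Of 2606 measured genes, 249 (9.55%) were at least 1.5-fold higher and 398 (15.3%) lower, with a median of −0.09. Krt4 was at 5545 CPM in metformin and 9636 in healthy gingiva (log2 ratio −0.80, 95% interval −0.88 to −0.72), and Tgm3 at 448 and 675 CPM, a ratio of −0.59 (95% interval −0.89 to −0.30). With barcodes over 10000 UMIs kept, both turned round, to log2 ratios of 0.28 for Krt4 and 0.645 for Tgm3.

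Wound keratins were higher in metformin, 5 of 5 measured, with a median log2 ratio of 1.63. Krt6a was at 4821 CPM in metformin and 1558 in healthy gingiva, 3.1-fold higher, with a log2 ratio of 1.63 (95% interval 1.49 to 1.77), and had UMIs in 97 of 130 and 75 of 146 cells. Krt6b was at 856 against 160.1 CPM, a log2 ratio of 2.42 (95% interval 2.00 to 2.86), Krt17 at 224 against 43.7 and Krt16 at 1096 against 405. Healthy Krt17 rested on 15 UMIs in 8 cells, 40% of them in 1 barcode. Of the Krt16 UMIs in metformin, 1 barcode held over 20%, which kept Krt16 out of the ranking. The Krt6a ratio lay between 1.51 and 2.54 under all 15 alternatives. In the basal comparator Krt6a was at 1472 against 1935 CPM, lower in metformin, and in the Krt76 comparator at 2776 against 3201. That the Krt4 Krt13 cells and the others differ in this was not tested.

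Some keratins of other layers were higher in these metformin cells as well. Of 4 measured keratins of keratinized surfaces, 3 were 1.5-fold higher and 0 lower, with a median log2 ratio of 1.12. The fourth, Krt76, was lower, at 1419 CPM in metformin against 1758 (log2 ratio −0.31, 95% interval −0.48 to −0.14). Krt10 was at 413 CPM in metformin and 169 in healthy gingiva, and Krt24 at 755 and 393 CPM. Krt14 was at 7025 against 4702 CPM, a log2 ratio of 0.58 (95% interval 0.49 to 0.67). This stands beside the larger share of metformin cells with basal keratins given above (50% against 32.9%). Spink5, an inhibitor of the proteases that shed surface cells, was at 186 against 67 CPM, and Sprr1b, an envelope precursor, at 120.3 against 17.5, where 1 barcode held 36.4% of its metformin UMIs. Of 17 envelope genes, 7 were higher and 1 lower (median 0.43).

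Pde4d was higher in metformin too, at 473 CPM against 96.1 in healthy gingiva, and so it was in the basal comparator, at 877 against 95.6 CPM. In all other barcodes it was lower in metformin, at 1813 against 5406 CPM. A Pde4d UMI was found in 31.5% of metformin and 19.9% of healthy cells, against 41.7% and 21.7% of endothelial barcodes. The ubiquitin gene Ubb was at 639.9 against 218 CPM and at 774 against 357 CPM in the basal comparator. AY036118 (3732 against 2128 CPM) and Agr2 (479 against 230.0 CPM) completed the 10 highest. The Agr2 log2 ratio was −0.49 in cells with at least 2% of UMIs from the pair.

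Among the genes ranked lowest in metformin, Nqo1, a quinone reductase and NRF2 target, was at 197 CPM in metformin and 477 in healthy gingiva, and its log2 ratio was −1.28 (95% interval −1.70 to −0.87). Adh7, the alcohol dehydrogenase of upper digestive epithelium that oxidizes retinol, was at 82 against 213 CPM. Ly6a was at 342 against 754 CPM, and at 351 against 619 CPM in the basal comparator. Mt3 was at 1077 against 2326 CPM, Krt23 at 95.7 against 209.6, Ada at 183 against 390.1 and the secreted binding protein Igfbp7 at 79.3 against 178. BC037156 was at 21.9 against 128 CPM and Tuba1b at 148 against 294. The Krt23 ratio was 0.69 with barcodes over 10000 UMIs kept, and the Tuba1b ratio 0.022 with at least 5% of UMIs from the pair. Cell cycle genes had 0 of 14 higher and 9 lower (median log2 ratio −0.88). Of 3 class I presentation genes, 2 were lower, with H2-D1 at 161 against 311 CPM and H2-K1 at 52 against 128.

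Among metabolic lists, nuclear oxidative phosphorylation genes had 0 of 62 in either direction (median log2 ratio −0.09, the same as over all genes), and glycolysis genes 0 of 11 in either direction (median 0.03). Of 30 listed genes of AMPK, mTORC1 and lipid synthesis, 5 reached 20 UMIs, with 0 higher and 2 lower in metformin (median −0.55), and 0 of the 5 had an interval below 0. Heat shock genes had 0 of 11 higher and 3 lower, and endoplasmic reticulum chaperones 1 of 17 higher and 4 lower. Mitochondrially encoded genes had 12 of 12 lower (median −1.69), and the median was 0.36 in cells with at least 2% of UMIs from the pair.

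**Figure D5:**
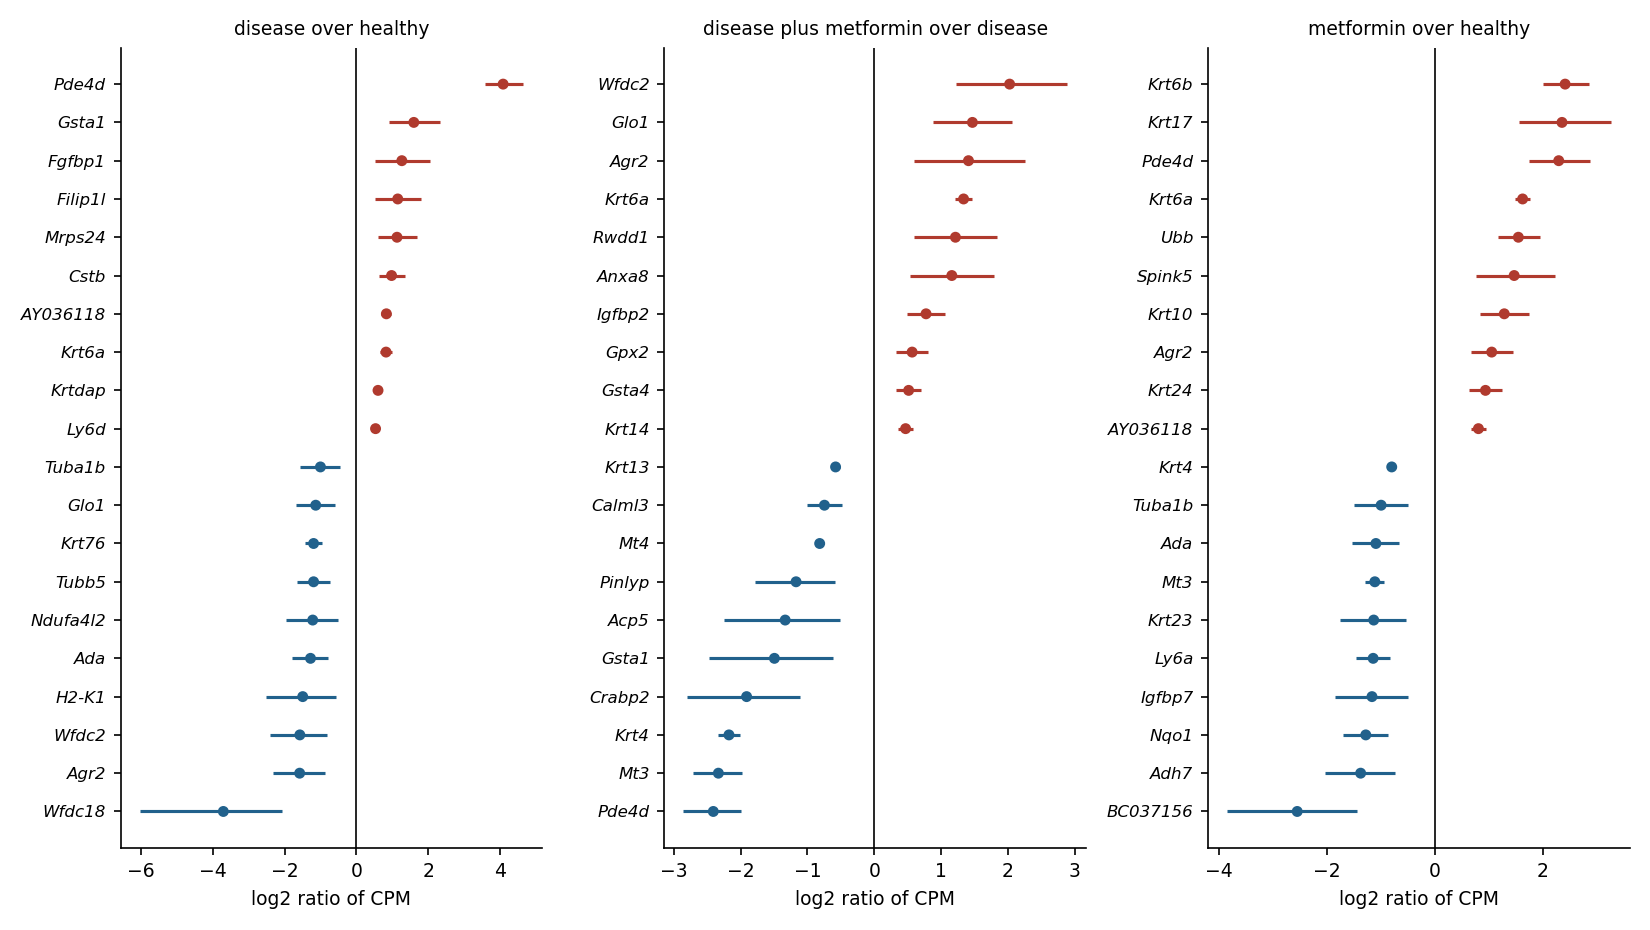
Log2 ratios of CPM in Krt4 Krt13 keratinocytes with 95% intervals (counting error only) for the 10 highest and 10 lowest genes of 3 comparisons, ranked by the interval bound nearest 0. Pde4d is first among the higher genes of disease over healthy and follows Krt4 among the lower genes of disease plus metformin over disease, which share the disease library, and Krt6a is among the highest in all 3.

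Disease plus metformin against metformin sets diseased against undiseased tissue, both treated. Of 2050 measured genes, 324 (15.8%) were at least 1.5-fold higher in disease plus metformin and 252 (12.3%) lower, with a median log2 ratio of 0.066. Krt4 was at 2101 CPM in disease plus metformin and 5545 in metformin, a log2 ratio of −1.40 (95% interval −1.57 to −1.24), and Krt13 at 18413 and 21758 CPM. Of the 6 lining markers, 0 were higher and 2 lower (median −0.32), and of the 4 outside the rule only Serpinb3a was 1.5-fold lower. Adh7 was at 355 against 82 CPM, a log2 ratio of 2.11 (95% interval 1.46 to 2.80), and Aldh3a1 at 1138 against 651 (a ratio of −0.36 with at least 5% of UMIs from the pair). Retinoid and fatty acid binding genes had 0 of 5 higher and 2 lower (median −0.37). Glo1 was at 397 against 167 CPM, Cyp2f2 at 572 against 319.9 and Ces1h at 711 against 364, the last with a ratio of −0.095 when barcodes over 10000 UMIs were kept. The annexins Anxa1 and Anxa8 were at 1144 against 609.8 and 313 against 137 CPM. Map1lc3a, an autophagy protein, was at 193 against 54.7 CPM, Higd2a at 175 against 73.8 and Krt6a at 6979 against 4821. Of 5 measured wound keratins, 3 were higher and 1 lower (median 1.01), and the median was −0.31 with at least 2% of UMIs from the pair and −0.11 without each gene's top barcode. The Krt6a ratio was −0.37 with at least 5% of UMIs from the pair.

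Lower in disease plus metformin than in metformin were Cd24a, a surface glycoprotein, at 30.1 against 153 CPM, Mt3 at 434 against 1077, and Pmvk, an enzyme of cholesterol synthesis, at 72.3 against 243. Keratins of keratinized surfaces had 1 of 5 higher and 3 lower (median log2 ratio −1.06), with Krt76 at 650.3 against 1419 CPM and Krt24 at 361 against 755. The Krt76 UMIs lay in 5 of 54 and 35 of 130 cells, and its ratio turned positive when barcodes over 10000 UMIs were kept (0.96), as did that of Krt24 (0.27). Gp2 (96.3 against 287 CPM), Agr2 (205 against 479) and Nupr1 (157 against 377) were lower, beside gland genes with 1 of 9 higher and 6 lower. With at least 2% of UMIs from the pair the ratio was 0.63 for Agr2 and 0.69 for Nupr1. Calml3 was at 987 against 1706 CPM. The 4 comparisons share libraries, so their values stand side by side and do not support each other.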

How the data were processed

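Droplet single-cell RNA was measured in 4 libraries of mouse gingiva, 1 in each group. The deposited matrices hold whole-number UMI counts per gene and barcode that the authors made with Cell Ranger 7.0.1 and bcl2fastq on mm10, per the submitters' processing notes, and every barcode holds at least 500 UMIs. Doublets were not called here, and the limit of 10000 UMIs is the only step that bears on them.

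Counts were summed over the selected barcodes of a library and given as CPM with exact Poisson 95% intervals. Shares have exact Clopper-Pearson intervals and ratios conditional exact binomial intervals, which cover counting error only. PCR duplicates are collapsed by UMI. A gene was measured with at least 20 UMIs over both libraries and called at 1.5-fold, and a gene without UMIs was given 3 so that a ratio could be formed. Python 3.11.15, numpy 2.4.6, scipy 1.17.1, pandas 2.3.3 and matplotlib 3.10.9 were used, and the ratio code was checked on simulated data.

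Named genes are the 6 markers, and for each comparison the 10 highest and 10 lowest by the interval bound nearest 0. These needed at least 50 UMIs with no barcode holding over 20% of them in the higher library. Mitochondrial, ribosomal, haemoglobin, immune receptor, sex-linked, gland and unnamed genes were left out of that ranking. Up to 4 genes of each list and the genes furthest from other keratinocytes or along the keratin share were added. Genes outside that rule, such as Krt4 and Krt13 in every comparison, serve as context. The members and gene lists were chosen with earlier results of these data known. Alternatives covered the limits of the selection, the scaling, the UMI minimum and the fold. A changed UMI minimum or fold alters which genes are counted and cannot alter the ratio of a gene.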

Additional observations from a re-analysis of the deposited data

Results flagged for a closer look

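Barcodes that met the Krt4 and Krt13 thresholds but held 10000 UMIs or more were left out of the comparisons except in the alternative without that limit, and they were found in every library. They numbered 6 in disease plus metformin, 20 in disease, 42 in metformin and 20 in healthy gingiva, above the limit that a count of 0 allows. Their median depths were 14462, 57041.5, 15174.5 and 79649 UMIs in the same order, against 2540.5, 1877, 2024.5 and 1520 UMIs in the barcodes below that limit. Whether they are doublets was not tested.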

How the results depend on the processing

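With 1 library in a group, there was no replicate to leave out. No paired analysis was possible because each group holds a single library. Of 1643 recomputed gene values, 1358 stayed within their interval, 250 moved beyond it in the same direction and 35 reversed. Of 1258 list medians, 1168 stayed, 81 moved and 9 reversed. Counts of called genes moved most with the UMI minimum and the limit of 10000 UMIs. The number of measured genes changes with the cells kept and with the UMI minimum, and it is not given for each alternative. The counts below therefore carry no share, and a larger or smaller count is not a stronger or weaker difference. The alternatives that narrow the cells leave few in disease plus metformin, 6 at 5% or more, and the cause of each reversal was not tested. Depth limits the text to genes with 20 UMIs over a pair of libraries, and intervals carry no variation between mice.

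With at least 2% of UMIs from Krt4 and Krt13, genes called higher numbered 141 in disease plus metformin over disease, 154 in metformin over healthy and 158 in disease plus metformin over metformin, and genes called lower numbered 190 in disease over healthy and 239 in metformin over healthy. Log2 ratios with the sign reversed were 1.68 (the median of mitochondrially encoded genes) and −0.059 (Krt13) in disease over healthy, then −0.065 (Krt16) in disease plus metformin over disease, then 0.36 (the median of mitochondrially encoded genes) and −0.49 (Agr2) in metformin over healthy, then −0.31 (the median of wound and stress keratins), 0.63 (Agr2) and 0.69 (Nupr1) in disease plus metformin over metformin.

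With at least 5% of UMIs from the pair, genes called higher numbered 133 in disease over healthy, 102 in disease plus metformin over disease, 119 in metformin over healthy and 77 in disease plus metformin over metformin, and genes called lower numbered 107 in disease over healthy, 150 in disease plus metformin over disease, 171 in metformin over healthy and 112 in disease plus metformin over metformin. The log2 ratio of shares was −0.17 for disease over healthy, −2.63 for disease plus metformin over disease and −1.73 for disease plus metformin over metformin. Log2 ratios with the sign reversed were 2.09 (the median of mitochondrially encoded genes), 0.057 (Tuba1b) and −0.012 (Krt13) in disease over healthy, then −0.062 (Gsta4), 0.033 (Pde4d), 0.34 (Crabp2), 0.073 (Krt13), 0.54 (Acp5) and 0.61 (Serpinb3a) in disease plus metformin over disease, then 0.55 (the median of mitochondrially encoded genes), 0.022 (Tuba1b) and 0.10 (Krt13) in metformin over healthy, then 0.16 (the median of salivary gland genes), −0.36 (Aldh3a1), −0.37 (Krt6a) and 2.40 (Krt76) in disease plus metformin over metformin.

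Without the limit of 10000 UMIs, genes called higher numbered 651 in disease over healthy, 495 in disease plus metformin over disease, 544 in metformin over healthy and 1048 in disease plus metformin over metformin, and genes called lower numbered 952 in disease over healthy, 2080 in disease plus metformin over disease, 2469 in metformin over healthy and 1422 in disease plus metformin over metformin. Log2 ratios with the sign reversed were 0.033 (the median of cell cycle genes) in disease over healthy, then 0.020 (Pinlyp), 0.11 (Calml3) and 0.13 (Serpinb12) in disease plus metformin over disease, then 0.28 (Krt4), 0.69 (Krt23), 0.75 (Krt13) and 0.64 (Tgm3) in metformin over healthy, then −0.095 (Ces1h), 0.96 (Krt76) and 0.27 (Krt24) in disease plus metformin over metformin.

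With at most 10% mitochondrial UMIs, log2 ratios with the sign reversed were 0.036 (the median of mitochondrially encoded genes) in disease plus metformin over disease.

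With a mitochondrial and a Malat1 UMI required, genes called higher numbered 119 in disease plus metformin over disease and 126 in disease plus metformin over metformin, and genes called lower numbered 159 in disease over healthy, 148 in disease plus metformin over disease, 177 in metformin over healthy and 157 in disease plus metformin over metformin. The log2 ratio of shares was −2.11 for disease plus metformin over disease, −1.72 for metformin over healthy and −1.34 for disease plus metformin over metformin. Log2 ratios with the sign reversed were −0.66 (Krt16) in disease plus metformin over disease, then −0.21 (Ces1h) and 0.53 (Krt76) in disease plus metformin over metformin.

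With barcodes weighted equally, genes called higher numbered 386 in disease over healthy and 396 in metformin over healthy, and genes called lower numbered 482 in disease over healthy and 386 in disease plus metformin over metformin. Log2 ratios with the sign reversed were −0.0061 (Agr2) and 0.084 (Krt13) in metformin over healthy.

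With at least 100 UMIs for a measured gene, genes called higher numbered 27 in disease over healthy, 26 in disease plus metformin over disease, 38 in metformin over healthy and 30 in disease plus metformin over metformin, and genes called lower numbered 29 in disease over healthy, 26 in disease plus metformin over disease, 37 in metformin over healthy and 32 in disease plus metformin over metformin.

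With any gene of at least 1 UMI, genes called higher numbered 3396 in disease over healthy, 4496 in disease plus metformin over disease, 2678 in metformin over healthy and 4914 in disease plus metformin over metformin, and genes called lower numbered 2966 in disease over healthy, 2193 in disease plus metformin over disease, 3624 in metformin over healthy and 1231 in disease plus metformin over metformin.

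Without genes led by 1 barcode, genes called higher numbered 132 in disease plus metformin over disease, 164 in metformin over healthy and 185 in disease plus metformin over metformin, and genes called lower numbered 183 in disease over healthy, 102 in disease plus metformin over disease, 251 in metformin over healthy and 80 in disease plus metformin over metformin.

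At a 2-fold threshold, genes called higher numbered 82 in disease over healthy, 71 in disease plus metformin over disease, 89 in metformin over healthy and 102 in disease plus metformin over metformin, and genes called lower numbered 122 in disease over healthy, 100 in disease plus metformin over disease, 164 in metformin over healthy and 116 in disease plus metformin over metformin.

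Without each gene's top barcode, an alternative chosen after seeing the data, log2 ratios with the sign reversed were −0.067 (Krt6b) and −0.88 (Krt16) in disease plus metformin over disease, then −0.11 (the median of wound and stress keratins) in disease plus metformin over metformin.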
